A study of Mus musculus with 3 samples.

Results

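The immediate early genes are switched on within minutes of a stimulus without new protein synthesis, and Myc is often counted with them. Members were the 10 genes Fos, Fosb, Jun, Junb, Egr1, Ier2, Atf3, Dusp1, Nr4a1 and Myc, taken by symbol through the RefSeq accession of each probe. They are 10 of the 16620 genes named on the array and were measured by 14 of 41153 probes. Each of the 14 probes exceeded background well on each of the 6 arrays, and all 10 genes passed the filter on dim signal that left 13484 genes. Gonads came from male Cyp26b1-/- mouse embryos of the MCH line at E12.5, E13.5 and E14.5 (days of embryonic development). Each stage had 2 one-colour Agilent arrays, described by the submitters as biological duplicates. Every group carries the same deletion, which removes an enzyme that breaks down retinoic acid in the embryonic testis. All gonads were stored in RNAlater before extraction with an RNeasy kit, and the RNA was amplified linearly into Cy3-labelled cRNA. Arrays of another genotype are not analysed here, so every difference below is between stages of the knockout gonad.

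Growth factors, hormones and cell stress act through MAP kinases, serum response factor and CREB to start transcription of these genes, whose mRNAs decay quickly. Fos and Jun family proteins pair to form the AP-1 transcription factor. Egr1, Nr4a1 and Atf3 are transcription factors of other families, Dusp1 is a phosphatase that switches MAP kinases off, and Myc pairs with Max to drive growth genes. Handling of tissue is also known to start these genes.

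The 6 arrays had 65.3% to 70.1% of probes well above background and 0 saturated spots. The mean level of 10 spike-in control probes was between -0.75 and -0.27 on the 6 arrays. The slide that held the E12.5 pair was not the one that held the 4 later arrays, so stage and slide cannot be told apart wherever E12.5 is compared. The contrast of E14.5 with E13.5 stays within a single slide. Of the testis markers, Amh and Sox9 of Sertoli cells and Ddx4 of germ cells were well above background on all 6 arrays. These samples also changed in cell type markers. Between E14.5 and E12.5, 5 of 5 measured fetal Leydig markers rose, as did 6 of 8 germ cell, 8 of 10 macrophage, 2 of 7 Sertoli and 1 of 7 interstitial markers, where 25.5% of all genes tested rose and 21.2% fell. Among the same lists, 1 Sertoli marker fell, and 3 of 8 endothelial, 4 of 7 erythroid and 4 of 6 mesonephric markers fell, with 1 erythroid and 1 mesonephric marker rising. The macrophage count became 3 with median scaling and without either E14.5 array, 4 without the first E12.5 array and 5 with no background filter, while median scaling gave 3 interstitial falls in place of 0. Of these markers, Lhcgr was well above background on no E12.5 array. The counts use the brightest probe of each gene. Other probes of Cyp11a1, Star, Tdrd1, Csf1r and Lyz2 rose. Another probe of Lhx9, an interstitial marker, was at -2.03, and another of Dazl, a germ cell marker, at -0.29. The Dazl rise was lost with the mean of all probes. In bulk tissue, fewer cells of a type and less RNA per cell cannot be told apart. The transcript of Cyp26b1 itself was at 4.96 and 4.73 on the E12.5 arrays, 4.29 and 4.20 on the E13.5 arrays, and 4.27 and 3.83 on the E14.5 arrays. Whether its probe lies in the deleted part is not given in the sources used here, so these levels check no label. Levels throughout are log2 of the signal over the 75th percentile of that array. A level of 0 equals that percentile, and a difference of 1 is 2-fold.

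Promoter windows are shown for Fos, Atf3 and Dusp1, since their differences between E14.5 and E12.5 passed the test under every setting tried. The RefSeq table (GRCm38.p6) held windows for 7 of the 10 members, Atf3, Jun, Fosb, Junb, Fos, Nr4a1 and Dusp1. The Nr4a1 window, chr15:101266596-101266845, lies inside the span of the gene, chr15:101253902-101274795. The Fosb window, chr7:19310046-19310295 on the minus strand, overlaps its gene, whose span ends at 19310118. Matches in these 2 windows are therefore not all before the outermost gene start. For Fos the 250 bases before the gene start are chr12:85473640-85473889 on the plus strand. Those of Atf3 are chr1:191183334-191183583 on the minus strand, and those of Dusp1 are chr17:26508473-26508722 on the minus strand. Capitals mark matches to the CREB core site TGACG on either strand, the full CREB site TGACGTCA and the TATA box TATAAA.
Fos: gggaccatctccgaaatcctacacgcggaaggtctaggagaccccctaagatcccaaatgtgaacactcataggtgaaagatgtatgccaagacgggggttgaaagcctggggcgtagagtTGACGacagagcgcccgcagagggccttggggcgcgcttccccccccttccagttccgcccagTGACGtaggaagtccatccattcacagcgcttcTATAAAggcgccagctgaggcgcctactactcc
Atf3: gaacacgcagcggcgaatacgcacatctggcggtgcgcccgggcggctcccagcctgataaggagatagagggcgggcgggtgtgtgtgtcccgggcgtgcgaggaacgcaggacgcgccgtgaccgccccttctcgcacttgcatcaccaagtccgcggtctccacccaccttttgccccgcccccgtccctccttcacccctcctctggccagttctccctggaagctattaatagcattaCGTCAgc
Dusp1: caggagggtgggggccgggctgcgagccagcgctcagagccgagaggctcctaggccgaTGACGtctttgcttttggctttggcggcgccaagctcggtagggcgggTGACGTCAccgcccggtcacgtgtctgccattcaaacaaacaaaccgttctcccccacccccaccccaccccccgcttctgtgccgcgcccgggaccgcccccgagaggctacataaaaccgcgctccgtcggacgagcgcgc
The core site was found in the windows of 6 of the 7 members, all but Jun, against 17.8% of 32851 windows of the same length. The full site, which contains the core site on both strands, was found in the Dusp1 window at bases -143 to -136 from the gene start, against 1.55% of windows. A TATA box stood in the Fos window at -33 to -28, against 12.4% of windows. The E-box CACGTG, the sequence that Myc and Max bind, matched in the Dusp1 window at -126 to -121, against 6.02% of windows. The EGR site GCGNGGGCG was present in the windows of Fosb and Nr4a1, against 4.70% of windows. The ETS core CCGGAA matched in Nr4a1 alone of the 7, against 12.0% of windows. The GC box GGGCGG was present in 6 of 7, against 32.7% of windows, and in the Fosb and Nr4a1 windows it overlaps the EGR site. The AP-1 site TGANTCA and the CArG box bound by serum response factor matched in 0 of the 7 windows. Over all windows their shares were 6.75% and 1.47%. Sites beyond these 250 bases, and members without a window, were not searched. All motifs were searched on both strands, and a match describes these letters in this window.

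**Figure D1:**
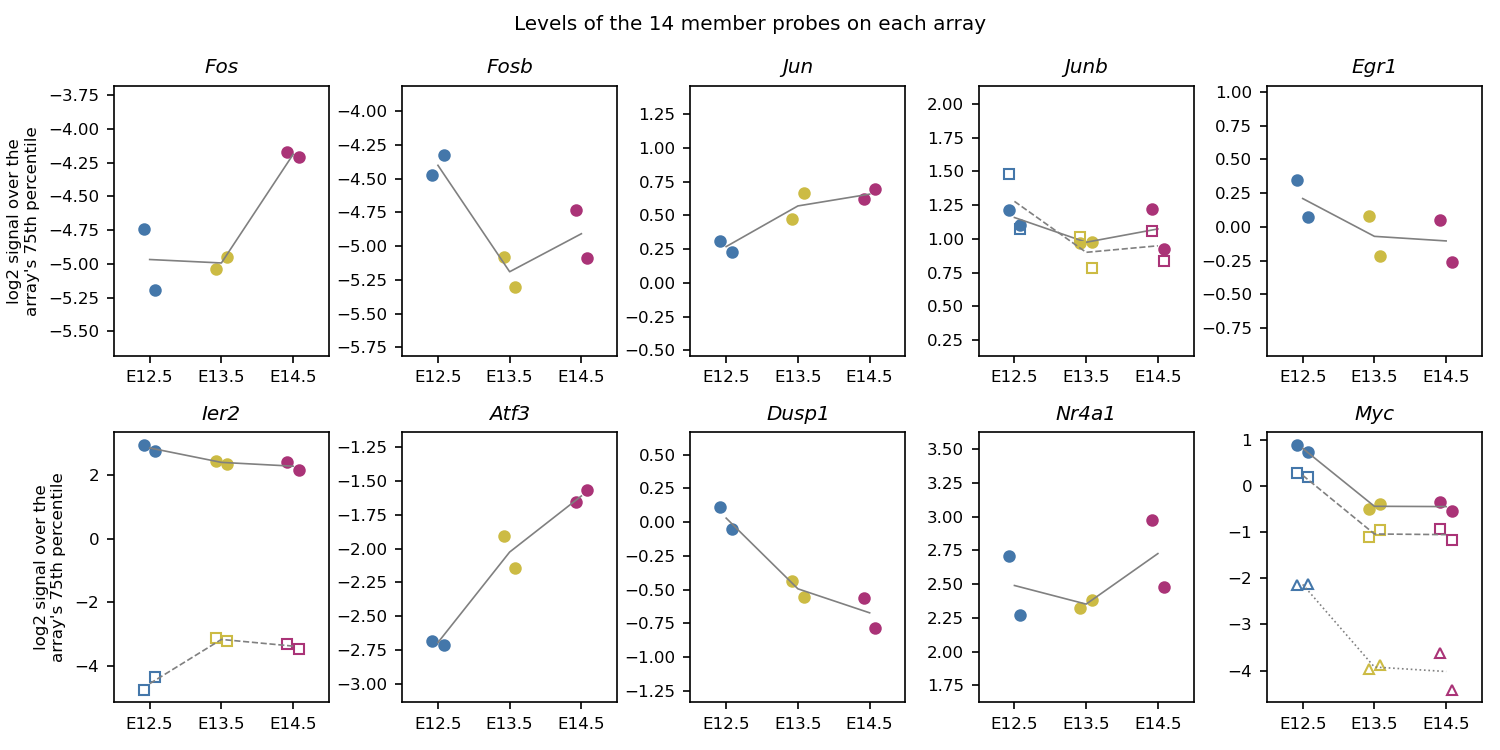
Level of each member probe (y axis, log2 signal over the 75th percentile of the array) at E12.5, E13.5 and E14.5 (x axis). Each point is 1 array, lines join stage means, filled circles are the brightest probe of a gene and open symbols its other probes. The y axes differ between panels. Myc fell on all 3 of its probes after E12.5, the Fos arrays of E14.5 lie above the other 4, and the probes of Ier2 run in opposite directions.

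Across the stages the members did not move as a group. On the brightest probe of each gene, Atf3, Fos and Jun were higher at E14.5 than at E12.5. Myc, Dusp1, Ier2 and Fosb were lower on theirs, while Junb, Egr1 and Nr4a1 did not pass the test. The dimmer Ier2 probe was higher at E14.5, by 1.18, and the Jun and Fosb calls held in only 6 of 16 alternative settings each. Between E14.5 and E12.5, 7 of 10 members passed (limma, adjusted p under 0.05), 3 rising and 4 falling, where 46.7% of all genes tested passed, 25.5% rising and 21.2% falling. Between E13.5 and E12.5, 5 passed, 1 rising and 4 falling, where 32.0% of all genes passed, 18.0% rising and 14.0% falling. Between E14.5 and E13.5, 0 members passed in limma, where 0.0519% of all genes (7) did. At an unadjusted p under 0.05 that comparison held 2 members, Fos and Atf3, and 2489 of all genes. The arrays of the compared stages did not overlap for 7 members at E13.5 against E12.5, for 4 at E14.5 against E13.5 and for 8 at E14.5 against E12.5, where 71.9%, 55.7% and 75.5% of all genes did not. The median difference of the 10 members was -0.23 for E13.5 against E12.5, 0.09 for E14.5 against E13.5 and -0.20 for E14.5 against E12.5. The medians of all genes were 0.04, -0.01 and 0.03 in the same order.

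**Figure D2:**
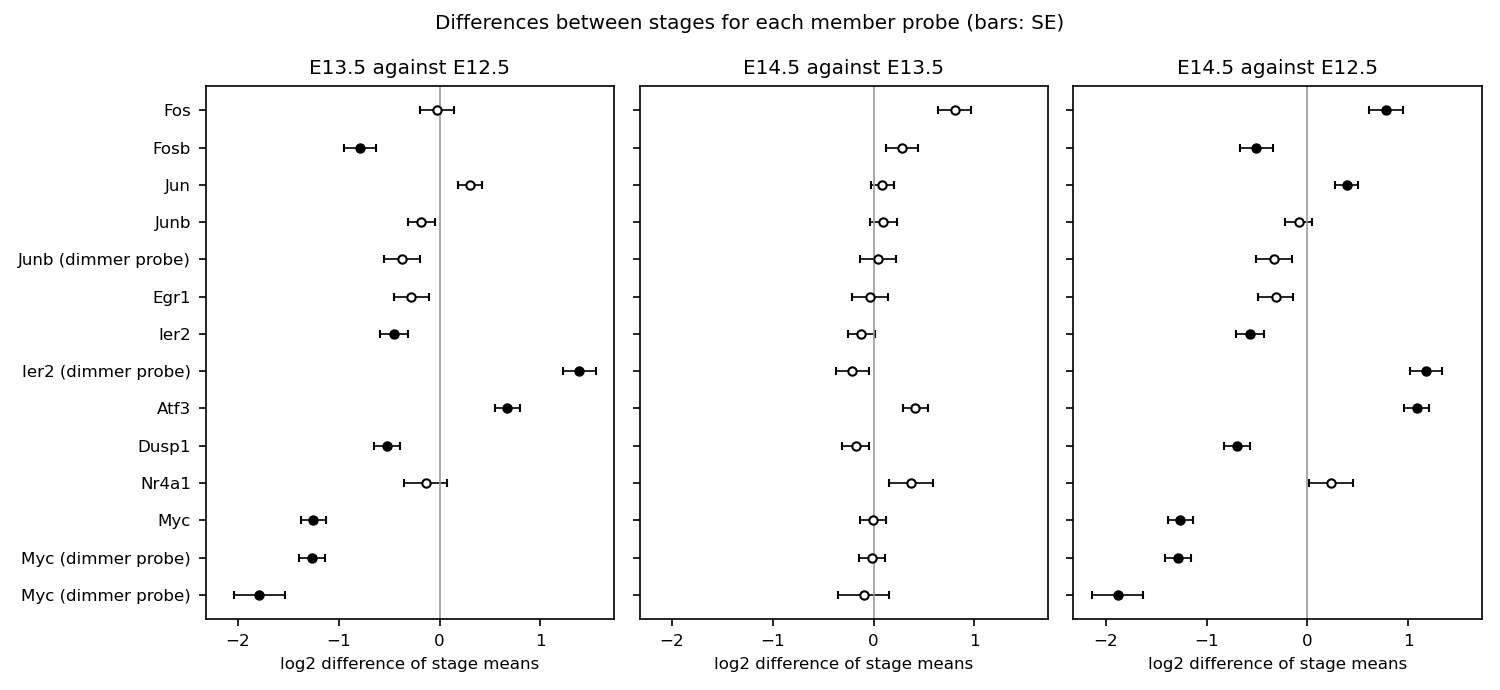
Log2 difference of stage means (x axis) for each of the 14 member probes (y axis) in 3 comparisons, with bars of 1 SE. Filled points had an adjusted p under 0.05 in a limma fit with each probe tested on its own. No point is filled for E14.5 against E13.5, where Fos lies farthest from 0 at 0.80.

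Fos encodes the AP-1 subunit that pairs with Jun proteins. Its level was -4.74 and -5.19 on the E12.5 arrays, -5.03 and -4.95 on the E13.5 arrays, and -4.17 and -4.21 on the E14.5 arrays. Both E14.5 arrays lay above all 4 others, and the E12.5 and E13.5 arrays overlapped. Against E13.5, on the same slide, E14.5 was higher by 0.80 ± 0.16 (SE, n = 2 arrays each), with an unadjusted p of 0.00282 and an adjusted p of 0.104 in limma. Against E12.5 it was higher by 0.78 ± 0.16, or 1.72-fold, with an adjusted p of 0.0125 in limma. At E13.5 against E12.5 the difference was -0.03 ± 0.16. The signal was dim, with a median spot intensity 1.73 to 2.55 times the local background, highest on the first E12.5 array. Before scaling, the intensity was 67.1 and 38.0 on the E12.5 arrays and 54.2 and 59.5 on the E14.5 arrays. The 75th percentiles of these arrays were 1793 and 1393 at E12.5 and 974 and 1099 at E14.5. That the first E12.5 array lies below the E14.5 arrays thus rests on the scaling, and every alternative also scales the arrays. The rise against E12.5 stayed past the threshold in all 16 alternatives, between 0.55 and 1.01, while the difference from E13.5 passed in none of the alternatives run. With normexp background correction that difference was 0.39.

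The array carries 1 Fos probe, 1 Jun probe and 1 Myc probe that are printed on 10 spots each, so the reading of a single array can be checked. The SD between spots of the same array was 0.07 to 0.23 for Fos, 0.03 to 0.05 for Jun and 0.04 to 0.07 for Myc. On the first E12.5 array the Fos spots ran from -4.97 to -4.27, the widest of the 6, and the highest of them reached the range of the E14.5 arrays. On the other E12.5 array they ran from -5.26 to -5.10. Spots of 1 array share its RNA and are not replicates of a stage.

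**Figure D3:**
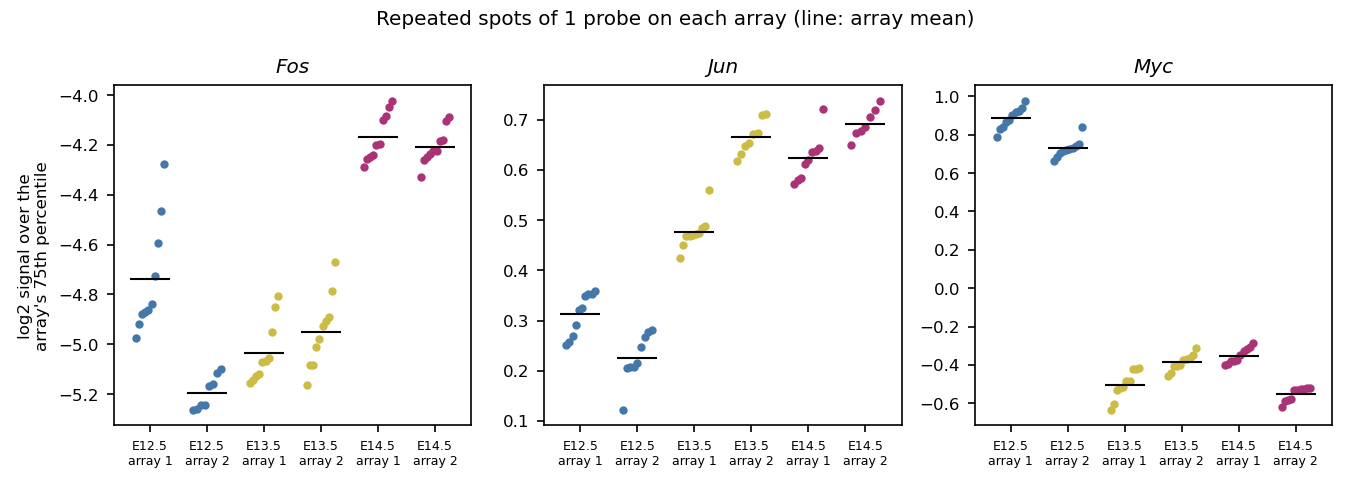
Level of each repeated spot (y axis, log2 signal over the 75th percentile of the array) of the Fos, Jun and Myc probes on the 6 arrays (x axis), sorted by value within an array, with the array mean as a line. Between 7 and 10 spots per array were kept after outlier spots were left out. Fos spots of both E14.5 arrays lie above -4.33, and Myc spots of both E12.5 arrays lie above all spots of the later stages.

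Fosb, a second Fos family subunit, was at -4.48 and -4.33 on the E12.5 arrays, -5.08 and -5.30 on the E13.5 arrays, and -4.73 and -5.09 on the E14.5 arrays. Its E12.5 arrays were above the 4 later ones, which overlapped with each other. Fosb was lower at E13.5 than at E12.5 by a log2 difference of -0.79 ± 0.16 (SE, n = 2 each; adjusted p = 0.0172 in limma). At E14.5 against E12.5 it was -0.51 ± 0.16 (adjusted p = 0.0437 in limma), and at E14.5 against E13.5 it was 0.28 ± 0.16 (adjusted p = 0.402). This probe was as dim as that of Fos, at 1.67 to 2.98 times the local background. With normexp background correction both calls were lost, at -0.11 against E12.5 for E13.5 and 0.02 for E14.5. Leaving out the first (-0.86) or second (-0.71) array of E12.5, or the second of E13.5 (-0.68), also ended the E13.5 call. The E14.5 call ended in 10 of 16 alternatives, among them 5 of the 6 that leave out 1 array (-0.58 to -0.33).

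Jun, the principal partner of Fos, was at 0.31 and 0.23 on the E12.5 arrays, 0.48 and 0.66 on the E13.5 arrays, and 0.62 and 0.69 on the E14.5 arrays. Both E12.5 arrays lay below the others, and those of E13.5 and E14.5 overlapped. The E14.5 level exceeded that of E12.5 by 0.39 ± 0.11 (SE, n = 2 each), or 1.31-fold, with an adjusted p of 0.0358 in limma. At E13.5 against E12.5 the difference was 0.30 ± 0.11 (adjusted p = 0.0932), and at E14.5 against E13.5 it was 0.09 ± 0.11 (adjusted p = 0.721). For E14.5 against E12.5 the sign held, but the call ended in 10 of 16 alternatives. Among them were leaving out any of the 6 arrays (0.35 to 0.43) and median scaling (0.24, adjusted p = 0.182 in limma). Before scaling, the Jun intensity was 2227 and 1629 on the E12.5 arrays and 1500 and 1776 on the E14.5 arrays. The rise of Jun thus rests on the scaling, and every alternative also scales the arrays.

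Junb, a Jun family subunit that can restrain Jun, was read by a pair of probes. The brightest probe gave 1.21 and 1.11 on the E12.5 arrays, 0.97 and 0.98 on the E13.5 arrays, and 1.22 and 0.93 on the E14.5 arrays. The other gave 1.48 and 1.07 on the E12.5 arrays, 1.02 and 0.78 on the E13.5 arrays, and 1.06 and 0.84 on the E14.5 arrays. The E14.5 arrays spanned the levels of the other stages on the first probe. For E14.5 against E12.5 the probes differed by -0.08 ± 0.13 and -0.33 ± 0.18, and neither passed any comparison. For the first probe the 95% interval of that difference was its value ± 0.32.

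Atf3 encodes a stress-induced factor of the ATF family that can pair with Jun. Its level was -2.68 and -2.71 on the E12.5 arrays, -1.90 and -2.15 on the E13.5 arrays, and -1.65 and -1.57 on the E14.5 arrays. The 3 stages did not overlap, and each was above the stage before it. Atf3 rose by 0.67 ± 0.12 at E13.5 against E12.5 (SE, n = 2 each; adjusted p = 0.0125 in limma). At E14.5 against E13.5 the difference was 0.42 ± 0.12 (adjusted p = 0.179). Over the whole window Atf3 rose by 1.09 ± 0.12, or 2.12-fold (adjusted p = 0.00187 in limma), the largest rise among the probes that stand for the 10 genes. That rise held in all 16 alternatives, between 0.86 and 1.13. The rise at E13.5 was lost without the first E13.5 array, at 0.55 and an adjusted p of 0.0647.

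Egr1, a zinc finger factor that is a standard readout of MAP kinase activity, was at 0.34 and 0.08 on the E12.5 arrays, 0.08 and -0.22 on the E13.5 arrays, and 0.05 and -0.26 on the E14.5 arrays. The duplicates of each stage differed by 0.27 to 0.31 in size, about as much as the stages did. The difference was -0.31 ± 0.17 at E14.5 against E12.5 (SE, n = 2 each; adjusted p = 0.185 in limma) with a 95% interval of that value ± 0.43. At E13.5 against E12.5 it was -0.28 ± 0.17, and at E14.5 against E13.5 it was -0.03 ± 0.17.

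Nr4a1 encodes an orphan nuclear receptor that is induced by luteinizing hormone in Leydig cells. Its level was 2.71 and 2.27 on the E12.5 arrays, 2.32 and 2.38 on the E13.5 arrays, and 2.98 and 2.48 on the E14.5 arrays. The duplicates of E12.5 and of E14.5 differed by 0.44 and 0.50 in size, the widest at E14.5 among the probes that stand for the 10 genes. The difference was 0.37 ± 0.22 at E14.5 against E13.5 (SE, n = 2 each; adjusted p = 0.408 in limma), 0.24 ± 0.22 against E12.5 (adjusted p = 0.401), and -0.14 ± 0.22 at E13.5 against E12.5 (adjusted p = 0.651). In the same arrays the mean level of 5 fetal Leydig markers was -2.60 and -2.24 on the E12.5 arrays, 1.18 and 1.51 on the E13.5 arrays, and 2.05 and 2.45 on the E14.5 arrays. The E12.5 means are lowered by Lhcgr, which was well above background on no E12.5 array and had a mean of -8.17 there.

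Ier2 encodes a nuclear protein of the early response, and its probes went opposite ways. On the brightest probe it was at 2.94 and 2.74 on the E12.5 arrays, 2.44 and 2.34 on the E13.5 arrays, and 2.39 and 2.14 on the E14.5 arrays. That probe was lower at E14.5 than at E12.5 by a log2 difference of -0.57 ± 0.14 (SE, n = 2 each; adjusted p = 0.0178 in limma), and at E13.5 than at E12.5 by -0.45 ± 0.14 (adjusted p = 0.0495). The other probe read -4.75 and -4.35 on the E12.5 arrays, -3.12 and -3.21 on the E13.5 arrays, and -3.29 and -3.45 on the E14.5 arrays. On that probe Ier2 was higher by 1.18 ± 0.16 at E14.5 against E12.5 and by 1.39 ± 0.16 at E13.5 against E12.5, with adjusted p-values of 0.00317 and 0.00401 in a limma fit of each probe. Its signal was 2.24 to 3.11 times the local background, against 89.1 to 274 times for the brightest probe. Averaging the probes gives 0.47 for E13.5 against E12.5 and 0.30 for E14.5 against E12.5, so the sign of the Ier2 change depends on the probe. On the brightest probe, leaving out any single array ended the E13.5 call (-0.55 to -0.35), as did median scaling (-0.51). The E14.5 call ended when the first array of E12.5 (-0.47) or the second of E14.5 (-0.45) was left out.

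Dusp1, the MAP kinase phosphatase of the set, was at 0.11 and -0.05 on the E12.5 arrays, -0.44 and -0.55 on the E13.5 arrays, and -0.56 and -0.78 on the E14.5 arrays. The stages did not overlap, and each was below the one before it. Dusp1 fell by 0.52 ± 0.13 on the log2 scale at E13.5 against E12.5 (SE, n = 2 each; adjusted p = 0.0284 in limma). The difference at E14.5 against E13.5 was -0.18 ± 0.13 (adjusted p = 0.504). Over the whole window it was -0.70 ± 0.13, or 1.63-fold lower (adjusted p = 0.00772 in limma), which held in all 16 alternatives between -0.85 and -0.58. Leaving out any of the 4 arrays compared ended the E13.5 call (-0.60 to -0.44). Across the 6 arrays Dusp1 and the brightest Ier2 probe had a Pearson r of 0.994, a description over arrays that share slides and scaling.

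Myc showed the largest change among the probes that stand for the 10 genes. Its brightest probe read 0.89 and 0.73 on the E12.5 arrays, -0.50 and -0.39 on the E13.5 arrays, and -0.35 and -0.55 on the E14.5 arrays. Both E12.5 arrays were above all 4 later arrays, which overlapped with each other. Myc fell by 1.25 ± 0.13 on the log2 scale at E13.5 against E12.5 (SE, n = 2 each), or 2.38-fold, with an adjusted p of 0.00309 in limma. At E14.5 against E12.5 it was 2.39-fold lower, with a log2 difference of -1.26 ± 0.13 and an adjusted p of 0.00130. The E14.5 and E13.5 levels differed by -0.01 with a 95% interval of that value ± 0.31 (adjusted p = 0.987). Leaving out any 1 array kept the call in both comparisons with E12.5, at -1.33 to -1.17 for E13.5 and -1.36 to -1.16 for E14.5.

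A second Myc probe read 0.27 and 0.18 on the E12.5 arrays, -1.12 and -0.97 on the E13.5 arrays, and -0.94 and -1.17 on the E14.5 arrays. The third Myc probe read -2.16 and -2.12 on the E12.5 arrays, -3.96 and -3.89 on the E13.5 arrays, and -3.62 and -4.42 on the E14.5 arrays. On both, the E12.5 arrays were above all later arrays. The differences for E14.5 against E12.5 were -1.28 ± 0.13 and -1.88 ± 0.25, with adjusted p-values of 0.00138 and 0.00299 in the limma fit of each probe. For E14.5 against E13.5 they were -0.01 ± 0.13 and -0.10 ± 0.25. In that fit, 46.7% of 19252 probes tested passed for E14.5 against E12.5 and 33.4% for E13.5 against E12.5.

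Duplicate arrays of a stage were also compared. At E12.5, 1 of 10 members was higher on the second array than on the first, where 48.5% of all genes were. At E14.5 it was 2 of 10 against 43.3% of all genes, and at E13.5 it was 5 of 10 against 45.7%. The median absolute difference between duplicates was 0.16, 0.12 and 0.23 for the members at E12.5, E13.5 and E14.5, and 0.16, 0.13 and 0.15 for all genes. Fos, Junb, Egr1, Ier2, Dusp1, Nr4a1 and Myc were lower on the second array at both E12.5 and E14.5.

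Genes outside the set that work in the same pathway are given next for E14.5 against E12.5. In that comparison 25.5% of all genes tested rose and 21.2% fell, and a call below means a limma adjusted p under 0.05. For these lists, 0 genes passed for E14.5 against E13.5, where 7 of all 13484 genes tested (0.0519%) passed. Of 16 other AP-1 and partner genes, 2 rose and 3 fell, with a median of 0.10 (-0.04 with median scaling). Between 1 and 5 rose and between 1 and 3 fell over the alternatives. Atf4, a factor of the integrated stress response, fell by 0.69 ± 0.12. Maff, a small Maf protein, was at -0.82 ± 0.27 (adjusted p = 0.0491), a call lost in 9 alternatives, and was at -0.40 without the second E14.5 array. Atf2, a CRE-binding partner of Jun, was at -0.39 ± 0.10 on its brightest probe and between -0.61 and 0.07 on the others. The Atf2 call was lost in 7 alternatives, among them normexp background correction (-0.18). Fosl1, a Fos family gene, was well above background on no E12.5 array, on both E13.5 arrays and on 1 of 2 at E14.5. Its measured means were -6.15 at E14.5 and -7.47 at E12.5 (adjusted p = 0.00311 in limma). No smallest fold is given for it, since 1 of the E14.5 arrays was not well above background either. With its E12.5 level set to the lowest signal called well above background, the Fosl1 difference was 0.12, and the list's median was the same to 2 decimals.

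Of 43 other primary response genes, 9 rose and 15 fell, with a median of -0.02. The alternatives gave 6 to 12 rises and 4 to 16 falls. Egr4, a relative of Egr1 known from neurons and male germ cells, had the largest rise. It was at -1.93 and -1.85 on the E12.5 arrays, 1.02 and 1.23 on the E13.5 arrays, and 1.66 and 1.75 on the E14.5 arrays, and rose by 3.60 ± 0.12 at E14.5 against E12.5, or 12.1-fold. Germ cell markers moved with it, with a mean level over 8 genes of 3.58 and 3.44 on the E14.5 arrays, against 1.91 and 2.21 on the E12.5 arrays. Fetal Leydig markers moved with it too, with a mean over 5 genes of 2.05 and 2.45 on the E14.5 arrays, against -2.60 and -2.24 on the E12.5 arrays. The latter mean includes Lhcgr, which was well above background on no E12.5 array. The part of either cell type in the rise was not tested. Gadd45b, a stress-response gene, rose by 1.13 ± 0.15, with 0.69 on its dimmer probe. Nfkbiz, a nuclear regulator of NF-kappaB, fell by 1.64 ± 0.13. Arid5b rose by 1.84 ± 0.21 on its brightest probe, but its other 3 probes gave -1.39, -0.54 and -0.52.

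Among 18 upstream regulators, 5 rose and 6 fell, with a median of 0.17 (0.02 with median scaling). Between 3 and 6 rose and between 5 and 6 fell over the alternatives. Srf, the serum response factor, was at 2.95 and 2.66 on the E12.5 arrays, 1.997 and 2.08 on the E13.5 arrays, and 2.14 and 1.91 on the E14.5 arrays. Its difference was -0.77 ± 0.15 at E13.5 and -0.78 ± 0.15 at E14.5 against E12.5 (adjusted p = 0.0143 and 0.00841 in limma). The coactivators of Srf, Mrtfa and Mrtfb, rose by 1.20 ± 0.12 and 1.66 ± 0.19, while the other Mrtfb probes gave 1.01 (well above background on all 6 arrays) and 0.01 (on 1 array). Mapk8 and Rps6ka3, which encode the kinases JNK1 and RSK2, were at 1.20 ± 0.24 and -1.33 ± 0.13. On the E12.5 arrays Mapk8 was at -5.26 and -5.11 and Mrtfa at -4.71 and -4.51, levels as low as those of Fos. Leaving out the first array of E12.5 ended the Mapk8 call, at 1.13 and an adjusted p of 0.052.

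Of 13 genes that damp MAP kinase signalling, as Dusp1 does, 5 rose and 6 fell, with a median of -0.22. Dusp4, an ERK phosphatase, read -2.003 and -3.15 on the E14.5 arrays, against 0.43 and 0.46 on the E12.5 arrays, and fell by 3.02 ± 0.41, or 8.13-fold. Spry4, an inhibitor of receptor tyrosine kinase signalling, fell by 1.24 ± 0.25. Dusp8, a phosphatase of JNK and p38 kinases, rose by 1.64 ± 0.17. Spred3, a Sprouty-related inhibitor, was at least 1.97-fold higher, being well above background on no E12.5 array. Over the alternatives between 4 and 5 genes of this list rose and between 4 and 6 fell.

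The Myc network, 12 genes that encode Myc relatives and partners, had 6 rises and 1 fall, with a median of 0.31. Median scaling, which moved the median of all genes for E14.5 against E12.5 to -0.12, left 0 rises and 1 fall and a median of 0.16. The fall was that of Mycn, the Myc paralogue, which was at 2.81 and 2.74 on the E12.5 arrays, 2.44 and 2.26 on the E13.5 arrays, and 2.02 and 1.66 on the E14.5 arrays. Mycn differed by -0.93 ± 0.15 at E14.5 against E12.5 (adjusted p = 0.00550 in limma) and by -1.23 on its other probe. Both E14.5 arrays of Mycn lay below those of E13.5, where the difference was -0.51 ± 0.15 and did not pass (adjusted p = 0.182). Max, the obligate partner of Myc, was at 0.60 ± 0.19 (adjusted p = 0.0419), a call lost in 9 alternatives, and was at 0.35 without the first E12.5 array. Mxd3, which competes with Myc for Max, and Zbtb17, a zinc finger partner of Myc, were at 0.52 ± 0.11 and 0.51 ± 0.10, and both calls were lost with median scaling.

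Of 23 genes known as Myc targets in growth and ribosome production, 0 rose and 9 fell, with a median of -0.31. Of all genes tested, 25.5% rose and 21.2% fell in that comparison. Between 0 and 1 rose and between 6 and 12 fell over the alternatives. The steps of the list are given beside those of Myc, and the part of Myc in them was not tested. For E13.5 against E12.5 the list's median was -0.08, with 0 rises and 4 falls, where 18.0% of all genes rose and 14.0% fell. For E14.5 against E13.5 its median was -0.29. Myc differed by -1.25 and -0.01 in the same order. Ccnd2, which encodes cyclin D2, read 4.03 and 4.23 on the E12.5 arrays, 2.94 and 2.89 on the E13.5 arrays, and 3.20 and 2.86 on the E14.5 arrays. Its E12.5 arrays lay above all later ones, and the difference was -1.10 ± 0.15 for E14.5 against E12.5. At E13.5 against E12.5 it was -1.22 ± 0.15, the largest fall of the list in that comparison. Pa2g4, a growth-related nucleolar protein gene, was at -1.38 ± 0.17 on its brightest probe and -0.60 on the other. The ribosome assembly gene Rrs1 fell by 0.93 ± 0.11, and the transferrin receptor gene Tfrc, also abundant in red cell precursors, fell by 0.83 ± 0.14. The mean level of 7 erythroid markers was 1.18 and 0.70 on the E14.5 arrays, against 2.27 and 2.58 on the E12.5 arrays, and their part in the Tfrc fall was not tested.

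**Figure D4:**
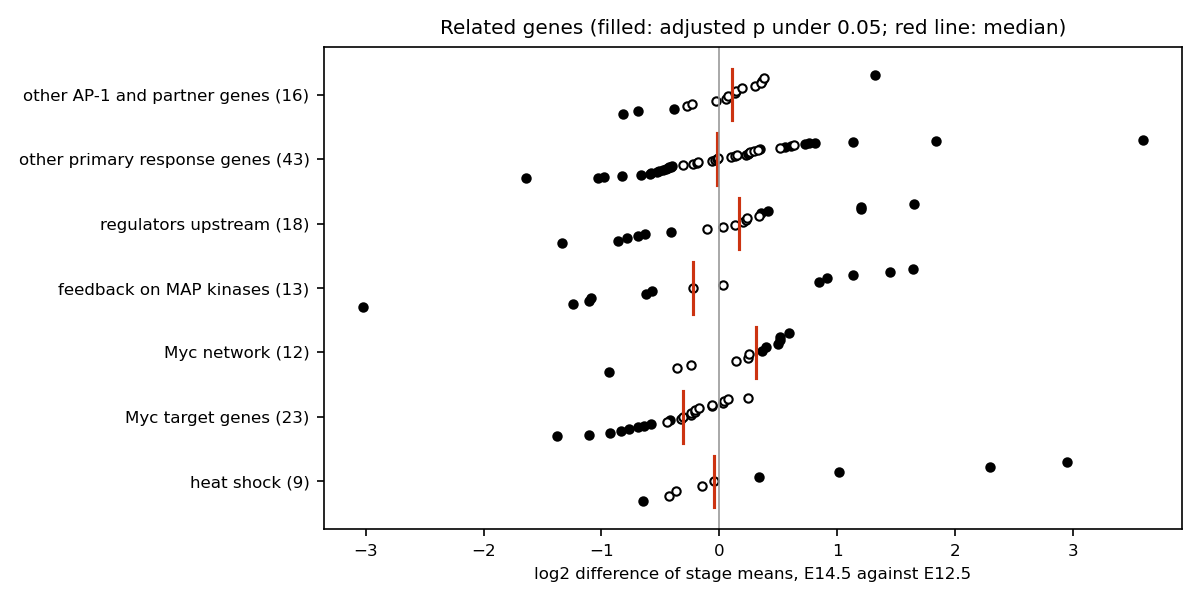
Log2 difference of stage means for E14.5 against E12.5 (x axis) for each measured gene of 7 related lists (y axis, number of genes in brackets). Filled points had a limma adjusted p under 0.05 and red lines are medians. The Myc target list has 9 filled points, all below 0, while the MAP kinase feedback list has 5 above and 6 below.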

How the data were processed

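Per the labels' protocols, RNA of male Cyp26b1-/- gonads was labelled with Cy3, and per the file headers each of the 3 samples holds 2 arrays. Per the file headers and the submitters' processing notes, the deposited spot intensity came from Agilent Feature Extraction 9.5, background-subtracted and not scaled between arrays. In the authors' deposited table each probe has 1 linear ratio for each stage, with no statement of what it is relative to. Its column medians are 0.963, 1.04 and 1.01. Over 25605 probes its log2 differences between stages matched the scanner values at a correlation of 1.0 with constant offsets of 0.10, -0.12 and -0.02, so its scale is linear and its direction is that of the scanner values, while its centring is unknown.

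From each log2 intensity the 75th percentile of that array was subtracted. Spots marked as outliers were dropped and the remaining spots of a probe averaged. Of 41174 probes, 21 lacked a value on some array and were not used, and 17608 had no gene symbol. The brightest probe stood for a gene, and genes were kept where both arrays of 1 or more stages were well above background. Comparisons between stages used limma 3.58.1 under R 4.3.3 (lmFit and eBayes, two-sided, all 6 arrays, 3 residual and 2.96 prior degrees of freedom) with Benjamini-Hochberg adjustment over 13484 genes. In simulated data with 200 of 13484 genes changed, 2-fold changes were recovered in 76% of genes for E14.5 against E13.5 and 75% for E14.5 against E12.5, with no slide difference put in. The simulation called 177 genes for E14.5 against E13.5, while 7 passed in the real arrays. The adjusted threshold depends on how many genes change, so these recovered shares do not carry over to the real comparisons. A bound is set against the lowest signal called well above background on each array of the dimmer stage. It is a bound on the signal and open to the same slide difference.

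Members and lists were chosen with earlier results of these data known. Named are all members, up to 4 members of each related list with the largest change past the threshold for E14.5 against E12.5, Srf, Max, Mycn, Cyp26b1 and the 5 genes most like Fos and Myc across the arrays. Alternatives were median and quantile scaling, normexp background correction, other background filters, other probe rules, another variance prior, a replicate block, 4 arrays only and leaving out each array. What separated the duplicates (animals or pools) is not given in the sources used here, so p-values measure the spread between these arrays. Their number limits the precision of every value. Figures were drawn with matplotlib 3.10.9 in Python 3.11.15.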

Additional observations from a re-analysis of the deposited data

How the results depend on the processing

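Over 16 alternatives per result, the calls of Myc in both comparisons with E12.5 and those of Fos, Atf3 and Dusp1 for E14.5 against E12.5 held in all of them. For E13.5 against E12.5 the count of 5 called members became 3 with no background filter and 2 to 5 without 1 array. For E14.5 against E12.5 the count of 7 became 4 without the first E12.5 or the second E14.5 array (4 to 6 without 1 array), and 0 members passed for E14.5 against E13.5 under every setting run. Replicate numbers showed no pairing of the E12.5 arrays, whose deviations correlated at -0.04 with E13.5 and -0.06 with E14.5. The E12.5 arrays also did not correlate best with their own number. Between E13.5 and E14.5, on the same slide, deviations correlated at 0.23, and whether replicate numbers pair those arrays is not known. The replicate block left 5, 0 and 5 members called. Signs turned for Ier2 with the mean of all probes (0.47 at E13.5 and 0.30 at E14.5, each against E12.5), with normexp for Fos (0.23, E13.5 against E12.5) and Fosb (0.018, E14.5 against E12.5), and with median scaling for Jun (-0.0072, E14.5 against E13.5). Leaving out 1 array turned signs only of differences that had not passed. These ran from -0.25 to 0.20 for Fos and -0.36 to 0.081 for Nr4a1 at E13.5 against E12.5. For E14.5 against E13.5 they ran from -0.19 to 0.12 for Egr1, -0.24 to 0.0034 for Ier2, -0.0070 to 0.18 for Jun, -0.047 to 0.24 for Junb and -0.11 to 0.094 for Myc. For E14.5 against E12.5 they ran from -0.23 to 0.061 for Junb and -0.014 to 0.49 for Nr4a1. Median scaling also changed the share of rises among calls over all genes for E14.5 against E12.5, to 41.1% in place of 54.7%. The Fos and Fosb probes and the dimmer Ier2 probe lie near background, and leaving out 1 E12.5 array moved the Fos difference for E14.5 against E12.5 (0.55 and 1.01) more than normexp did (0.62).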

Other observations

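Heat shock genes, which respond to stress of the tissue as some immediate early genes do, had 4 rises and 1 fall among 9 measured for E14.5 against E12.5 (limma adjusted p under 0.05), with a median of -0.04, where 25.5% of all genes tested rose and 21.2% fell. Between 3 and 4 rose and between 1 and 3 fell over the alternatives. The fourth rise, that of Dnajb1, a co-chaperone gene chosen here after its values were seen, was 0.34 and was lost in 12 alternatives, and another probe of it gave 0.07. Hspa1a, an inducible heat shock protein 70 gene, was at -0.68 and -0.94 on the E12.5 arrays, 1.44 and 1.56 on the E13.5 arrays, and 1.83 and 2.46 on the E14.5 arrays, a rise of 2.95 ± 0.22 for E14.5 against E12.5 (adjusted p = 0.00074 in limma). Its near-identical neighbour Hspa1b was at 2.29 ± 0.22, and reads of these copies by array probes may not be separate. Hspb1, a small heat shock protein gene, rose by 1.02 ± 0.17, and Dnaja1, another co-chaperone gene, was at -0.65 ± 0.10 on its brightest probe and between -0.40 and -0.10 on the others.

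Among 12533 genes well above background on all 6 arrays, the 5 whose levels followed those of Fos most closely were Alx4, Art1, Scpep1, Poc5 and Arhgap25, with a Pearson r of 0.982 to 0.992. For Myc they were Pnliprp1, Mef2c, Cask, Plat and Hmgb3, with r of 0.997 to 0.999. These are the highest of many correlations over 6 arrays that share 2 slides, and are given as a description.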
